A study of Mus musculus with 8 samples.

Results

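The transcripts of 10 genes for NK cell receptors and an NK cell transcription factor were examined in HCA-1 liver tumors: Ncr1, Klrb1c, Klrk1, Klrd1, Klrc1, Klre1, Klrg1, Klri2, Eomes and Cd244a. They were found by gene symbol among the 55536 counted genes, and all 10 were matched. Cd244a carries its older symbol Cd244 in the deposited names and was matched through its gene identifier. Of the 10 genes, 9 had enough counts to enter the test with 15998 genes in all, and Klrb1c did not.

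Natural killer (NK) cells kill tumor and infected cells when signals from activating receptors outweigh those from inhibitory ones. Most of these receptors in mice are lectin-like proteins encoded side by side in the NK gene complex, and activated CD8 T cells also use several of them. NKG2D binds stress-induced ligands and activates through the adaptors DAP10 and DAP12, whereas the CD94/NKG2A pair binds the MHC-like molecule Qa-1 and inhibits. Eomes is a T-box transcription factor that NK cells and effector CD8 T cells need for maturation. In the liver, its presence separates conventional NK cells from the closely related type 1 innate lymphoid cells.

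The tumors were grown from HCA-1, a murine hepatocellular carcinoma line, implanted into the liver of male C3H mice aged 6 to 8 weeks per the labels. On day 17, the IMQNP group received 1 i.v. dose of PFSUV-IMQ at 4 mg kg−1, that is, the TLR7 agonist imiquimod loaded in phospholipid-free small unilamellar vesicles. The Control group received saline. Tumors were harvested 3 h later, with n = 4 in each group, and the replicates are numbered 1, 2, 3 and 4 in the IMQNP group and 1, 3, 4 and 5 in the Control group. The comparison asks whether NK cell transcripts already differed in the tumor at this early time point.

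Counts per tumor totalled 16883911 to 27687756 in the control group and 17008151 to 18527613 in the PFSUV-IMQ group. At this depth, 3 counts correspond to 0.105 to 0.163 and 0.165 to 0.210 normalized CPM (counts put on the same library size), and this floor covers counting error only. The tumor label was checked by the hepatocyte gene Alb, which ranged from 2938 to 22736 CPM. The keratin genes Krt8 and Krt18 ranged from 444 to 1256 CPM, whereas the oncofetal markers Afp and Gpc3 did not exceed 6.08 CPM. All 8 hepatocyte and liver cancer markers were detected, and none passed the test between groups. PFSUV-IMQ replicate 2 stood apart from its group: it had the highest Alb, Hnf4a and Ptprc (encoding the leukocyte antigen CD45) of the 4 tumors, at 22736, 248 and 172 CPM. It was also the lowest of the 4 for Afp, Gpc3, Krt8 and Krt18, at 2.1, 0.629, 444 and 550 CPM. Control replicate 4 had a similar Alb level, at 22446 CPM, with Hnf4a at 181, Krt8 at 567 and Ptprc at 86.8 CPM. In whole tumors, fewer cells of a type and less RNA per cell cannot be told apart.

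The genes lie in few places in the genome (mouse build GRCm38, GENCODE M21 annotation). On chromosome 6 there are 7 of the 10. Of these, 5 members lie in the order Klre1, Klrd1, Klrk1, Klrc1 and Klri2 over 162.58 kb, from position 129577905 to 129740484. The related genes Klrc2, Klrc3 and Klri1, which are not members, lie between them in this stretch. Klrb1c (128778485 to 128789215) and Klrg1 (122270596 to 122282882) lie farther away on the same chromosome. Ncr1 is on chromosome 7 (4337724 to 4345164), Eomes on chromosome 9 (118478212 to 118486132) and Cd244a on chromosome 1 (171559193 to 171609746).

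Promoter sequences are shown for the members with the largest fold changes in each direction, Klrk1 and Ncr1, and for Eomes, the member whose promoter held a searched motif. Each is the 250 bases before a RefSeq start site in GRCm38.p6, read 5′ to 3′ on the strand of the gene, and capitals mark the motif match.
Klrk1, minus strand, chr6:129623865-129624114: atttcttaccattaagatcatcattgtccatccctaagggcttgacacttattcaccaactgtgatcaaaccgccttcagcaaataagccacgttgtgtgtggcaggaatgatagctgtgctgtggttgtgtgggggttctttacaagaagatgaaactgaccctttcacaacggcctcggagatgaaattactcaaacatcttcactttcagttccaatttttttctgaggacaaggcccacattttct
Ncr1, plus strand, chr7:4337474-4337723: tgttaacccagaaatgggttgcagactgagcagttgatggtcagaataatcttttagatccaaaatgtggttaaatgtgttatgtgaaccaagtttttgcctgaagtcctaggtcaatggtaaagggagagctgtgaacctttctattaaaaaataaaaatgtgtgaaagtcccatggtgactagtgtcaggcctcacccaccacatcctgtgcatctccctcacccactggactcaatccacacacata
Eomes, plus strand, chr9:118477939-118478188: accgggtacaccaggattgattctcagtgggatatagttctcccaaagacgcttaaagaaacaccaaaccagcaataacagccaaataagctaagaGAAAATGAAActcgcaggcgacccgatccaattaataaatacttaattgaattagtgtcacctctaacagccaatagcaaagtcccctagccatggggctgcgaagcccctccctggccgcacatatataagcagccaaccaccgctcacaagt
RefSeq promoter windows of 300 bases, from 250 before to 50 after the start site, were found for 7 of the 10 genes (Cd244a, Klrb1c, Klre1, Klrk1, Klrc1, Ncr1 and Eomes). They were searched on both strands for an interferon-stimulated response element written GAAA-NN-GAAA, an interferon gamma-activated site written TTCNNNGAA and a T-box site written GGTGTGA. Among 32851 mouse promoters, 3.44%, 8.3% and 3.98% held these letters. The single match among the members was the first motif in Eomes, 154 bases before the start site on the plus strand, and no match says only that these letters are not in these windows.

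Among all 15998 tested genes, 2.26% were called higher and 0.2% lower after PFSUV-IMQ, where a call needed a Benjamini-Hochberg adjusted p below 0.05 in the quasi-likelihood test of edgeR and a log2 fold change over 1 or under −1. None of the 9 tested members was called in either direction: 5 had a log2 fold change above 0 and 4 below 0, with a median of 0.02 against −0.03 over all tested genes. Without PFSUV-IMQ replicate 2, 2 members were above 0 and 7 below 0, with a median of −0.39 against −0.05 over all tested genes. That tumor was the highest treated one for all 9 tested members, so leaving it out could only lower their treated means. No such tally was made without a control tumor, here or for the lists below. At an unadjusted p under 0.05 there were 2 members, Klrk1 and Ncr1, and they lay on opposite sides of 0. Over all tested genes, 13.0% had an unadjusted p this small. No member had groups that were free of overlap in CPM, compared with 9.28% of all tested genes. All p values here weigh a difference between the groups against the spread between these individual tumors.

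**Figure D1:**
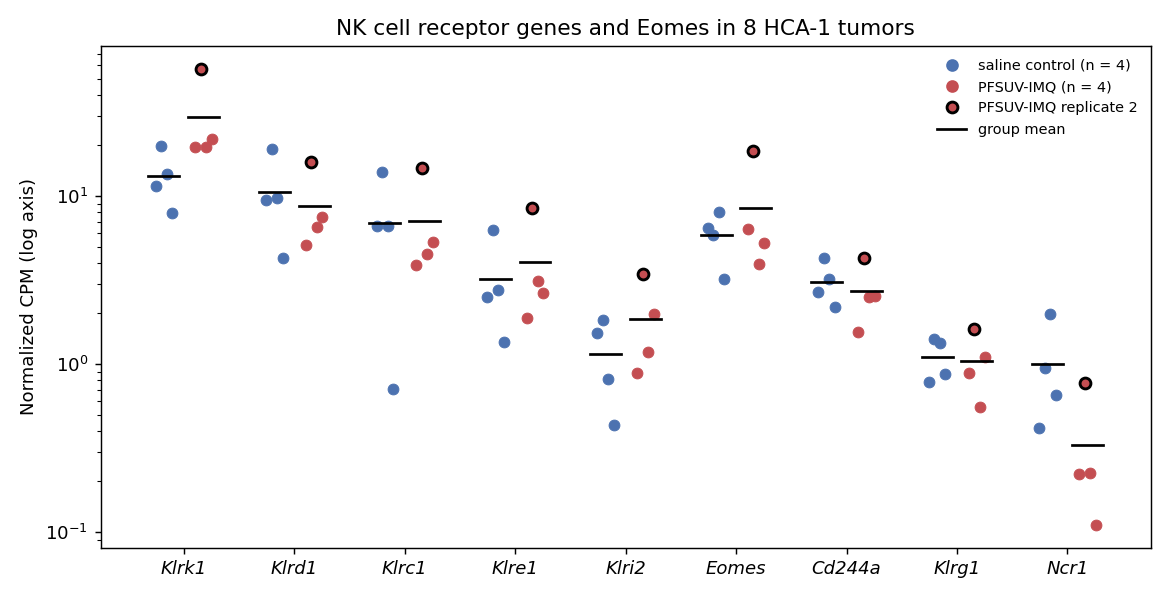
Normalized CPM of the 9 tested genes (log axis) in each of 4 saline control and 4 PFSUV-IMQ tumors, with bars at the group means and a black ring around PFSUV-IMQ replicate 2. The ringed tumor is the highest of its group for all 9 genes, and the groups overlap in each gene.

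Of the activating receptors, Klrk1, which encodes NKG2D, had the largest increase in fitted level. It lies on the minus strand of chromosome 6 (129610323 to 129623864). Control replicates 1, 3, 4 and 5 had 11.5, 19.9, 13.5 and 7.87 CPM, and PFSUV-IMQ replicates 1 to 4 had 19.5, 57.2, 19.5 and 21.9 CPM. The groups overlapped by a small margin, since control replicate 3 was just above the lowest treated tumors, and 1 treated tumor was far above the rest. The means were 13.2 ± 5.05 CPM in controls and 29.5 ± 18.5 CPM after PFSUV-IMQ (SD, n = 4 each), and the treated mean was 20.3 CPM without replicate 2. The log2 fold change was 1.16 (standard error 0.41) and did not pass the test, with an edgeR quasi-likelihood adjusted p of 0.252. Without PFSUV-IMQ replicate 2 it was 0.60 (edgeR quasi-likelihood adjusted p = 0.398).

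Ncr1 encodes NKp46, an activating receptor that marks NK cells and related innate lymphoid cells in mice and signals through Fcer1g and CD3 zeta. It was sparse, with 9, 27, 46 and 12 counts in control replicates 1, 3, 4 and 5 and 4, 11, 4 and 2 counts in PFSUV-IMQ replicates 1 to 4. In normalized units these were 0.415, 0.949, 1.98 and 0.652 CPM against 0.221, 0.768, 0.223 and 0.110 CPM, the last of which is under the floor of its tumor. Of the treated tumors, replicates 1, 3 and 4 were below every control, and replicate 2 fell inside the control range. The log2 fold change was −1.63 (standard error 0.66, edgeR quasi-likelihood adjusted p = 0.325), so the decrease was not called. It was −2.42 without PFSUV-IMQ replicate 2 and −1.07 without control replicate 4, with adjusted p values of 0.121 and 0.645.

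Klrb1c, which encodes the NK1.1 antigen, was close to absent from the counts. It had 1, 4, 6 and 7 counts in control replicates 1, 3, 4 and 5 and 0, 2, 0 and 0 in PFSUV-IMQ replicates 1 to 4. Control replicate 1 and all 4 treated tumors were under the floor of 3 counts, and the other controls were just above it. No fold change is given for it at this depth. As background, the NK1.1 antibody stains C57BL/6 but not C3H mice, and the GRCm38 reference is of the C57BL/6J strain. Annotated exons of Gm44511 on the same strand overlap 13.9% of its exon bases, and 18.1% of its 50-base words occur in that gene or in related Klrb1 genes, so that its counts are uncertain.

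The subunits of the inhibitory CD94/NKG2A pair are encoded on either side of Klrk1. Klrd1 (CD94, chromosome 6, 129591782 to 129598775, plus strand) had 9.45, 19.1, 9.67 and 4.29 CPM in control replicates 1, 3, 4 and 5 and 5.08, 16.0, 6.52 and 7.50 CPM in PFSUV-IMQ replicates 1 to 4. The treated values lay inside the control range. Its log2 fold change was −0.28 (standard error 0.48, edgeR quasi-likelihood adjusted p = 0.884), and −0.76 without PFSUV-IMQ replicate 2.

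Klrc1 (NKG2A, chromosome 6, 129666015 to 129678973, minus strand) had 6.59, 13.9, 6.62 and 0.706 CPM in the same 4 controls and 3.86, 14.6, 4.52 and 5.35 CPM after PFSUV-IMQ. Control replicate 5 was far below every other tumor, and the highest tumor of each group reached about the same level. The log2 fold change was 0.02 (standard error 0.71, edgeR quasi-likelihood adjusted p = 0.995), and it was −0.63 without PFSUV-IMQ replicate 2. Of the 50-base words of Klrc1, 40.3% are shared with Klrc2 or Klrc3, so reads could be split between these genes by the counting. Klrc2, which encodes an activating partner of CD94, was also lowest among controls in replicate 5, at 1.25 CPM.

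The receptor pair of Klre1 and Klri2 sits at the ends of the same stretch of chromosome 6. Klre1 proteins pair with Klri1 to inhibit or with Klri2 to activate. Klre1 (129577905 to 129585827) had 2.49, 6.25, 2.75 and 1.36 CPM in control replicates 1, 3, 4 and 5 and 1.88, 8.52, 3.12 and 2.65 CPM in PFSUV-IMQ replicates 1 to 4. Klri2 (129729041 to 129740484) had 1.52, 1.83, 0.816 and 0.434 CPM in controls and 0.883, 3.42, 1.17 and 1.98 CPM after PFSUV-IMQ. In both genes, replicate 2 was the highest treated tumor and exceeded every control. The log2 fold changes were 0.32 ± 0.57 for Klre1 and 0.67 ± 0.54 for Klri2 (± standard error), with edgeR quasi-likelihood adjusted p values of 0.896 and 0.705. Without PFSUV-IMQ replicate 2 the values were −0.36 for Klre1 and 0.19 for Klri2.

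Klrg1, an inhibitory receptor for cadherins found on mature NK cells and effector T cells, had 0.783, 1.41, 1.33 and 0.869 CPM in control replicates 1, 3, 4 and 5. In PFSUV-IMQ replicates 1 to 4 it had 0.883, 1.61, 0.558 and 1.10 CPM. The treated range enclosed the control range, and the log2 fold change was −0.10 (standard error 0.39, edgeR quasi-likelihood adjusted p = 0.959), or −0.39 without replicate 2. Cd244a encodes 2B4, which binds CD48 and can activate or inhibit. It had 2.67, 4.25, 3.22 and 2.17 CPM in controls and 1.54, 4.26, 2.51 and 2.54 CPM after PFSUV-IMQ. The highest values of the groups were nearly equal, and the log2 fold change was −0.19 (standard error 0.36, edgeR quasi-likelihood adjusted p = 0.901), or −0.51 without replicate 2.

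Eomes had 6.45, 5.83, 8.03 and 3.20 CPM in control replicates 1, 3, 4 and 5 and 6.35, 18.4, 3.96 and 5.24 CPM in PFSUV-IMQ replicates 1 to 4. Treated replicate 2 was above all other tumors, and the remaining treated tumors fell within the control range. Its log2 fold change was 0.52 (standard error 0.49, edgeR quasi-likelihood adjusted p = 0.754), and it was −0.20 without that tumor. Exons of Gm33460 on the opposite strand overlap 2.84% of the exon bases of Eomes.

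**Figure D2:**
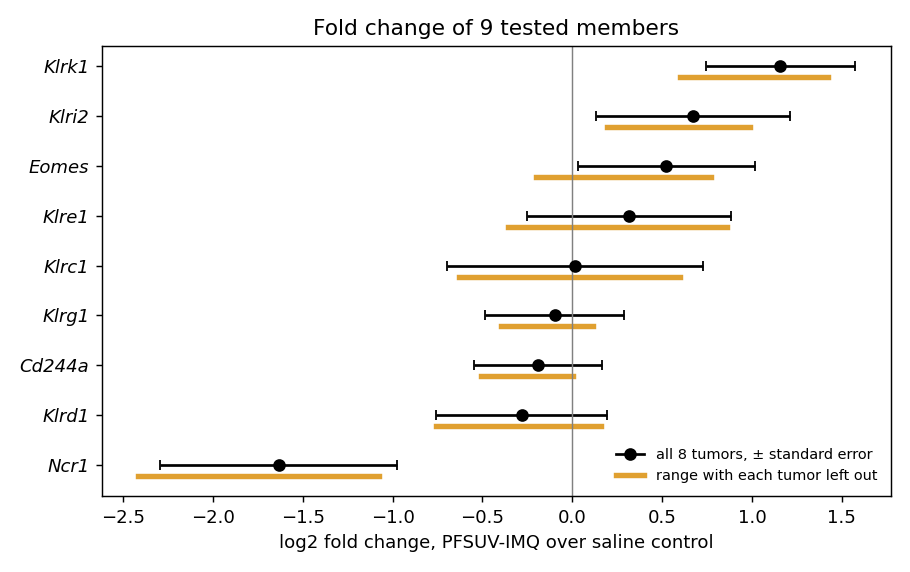
Log2 fold change (PFSUV-IMQ over saline control) of the 9 tested genes, with points and bars for the estimate and its standard error over 8 tumors and orange lines for the range when each tumor is left out in turn. Klrk1 stays above 0 from 0.60 to 1.42 and Ncr1 stays below 0 from −2.42 to −1.07, and neither passed the test in any of these fits.

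The spread between tumors was shared by many members. PFSUV-IMQ replicate 2 was the highest treated tumor for 9 of 9 tested members, at 1.90 to 4.16 times the mean of the other treated tumors. Among controls, replicate 3 was the highest for 7 of the 9 and replicate 5 the lowest for 7. The mean log2 CPM of the 9 genes was 1.63, 2.37, 1.95 and 0.77 in control replicates 1, 3, 4 and 5 and 1.26, 2.84, 1.38 and 1.58 in PFSUV-IMQ replicates 1 to 4. Ptprc went the same way, with 69.4, 100, 86.8 and 39.6 CPM in controls and 63.5, 172, 51.4 and 75.2 CPM after PFSUV-IMQ. Its part in the members' values was not tested. The genes whose log2 CPM was most like the members' mean over the 8 tumors were Hprt, Psmd10, Arpc5, Pex13 and Ptprc, with Pearson correlations of 0.97 to 0.98, given as a description of likeness over tumors that share their libraries. For Klrk1 alone the most alike were Rab19, Vcam1, Bmper, Dram1 and Cd86, with correlations of 0.98 to 0.99 over the same 8 tumors, and none of them was called.

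Levels were compared between members only per length of exon sequence, as CPM per kb. The length was that of all annotated exons of a gene merged, such as 7183 bases for Klrk1 and 1281 bases for Klrd1. It is not the length of the transcripts in use in these tumors, so the order also depends on this choice. In controls the order was Klrd1 (8.29 ± 4.81), Klrc1 (3.50 ± 2.72), Klrk1 (1.84 ± 0.704), Eomes (1.42 ± 0.484), Klre1 (0.919 ± 0.606), Klrg1 (0.776 ± 0.224), Ncr1 (0.648 ± 0.447), Cd244a (0.632 ± 0.183) and Klri2 (0.294 ± 0.163; SD, n = 4). Neighbors in this order differed by less than the sum of their SDs. After PFSUV-IMQ, Klrd1 was again first at 6.85 ± 3.84 CPM per kb, and Klrk1 stood next at 4.11 ± 2.58 CPM per kb, above Klrc1 at 3.57 ± 2.55 CPM per kb. Ncr1 was last at 0.215 ± 0.193 CPM per kb. These orders carry the same error between tumors, and the change of place between Klrk1 and Klrc1 is within it.

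A ratio of the counts of a pair of members within a tumor does not depend on library size, and such ratios were compared for all 36 pairs of the 9 tested genes, with 0.5 added to each count. The pairs to print were chosen after their values were seen. The ratio of Klrk1 to Klrd1 was 1.21, 1.04, 1.39 and 1.83 in control replicates 1, 3, 4 and 5 and 3.82, 3.57, 2.97 and 2.91 in PFSUV-IMQ replicates 1 to 4. All treated tumors, replicate 2 included, were above all controls. The mean log2 ratio was 0.42 ± 0.34 in controls and 1.72 ± 0.19 after PFSUV-IMQ (SD, n = 4 each), a difference of 1.30 that ranged from 1.18 to 1.45 with each tumor left out. The exact two-sided permutation test gave p = 0.0286, the smallest that 4 against 4 tumors allow. Of all other tested genes, 3.43% had a ratio to Klrd1 that was higher in every treated tumor than in every control.

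The ratio of Klrk1 to Cd244a behaved alike, with 4.26, 4.67, 4.17 and 3.59 in controls and 12.4, 13.3, 7.68 and 8.55 after PFSUV-IMQ, and a log2 difference of 1.30. Again the groups did not overlap. The ratios of Klrk1 to Klrg1 and to Klre1 were also free of overlap, with log2 differences of 1.19 and 0.78. Against Klrc1, Klri2 and Eomes the groups overlapped, and the differences were 0.66, 0.37 and 0.74. In total, 5 of the 8 members had a ratio to Klrk1 that was lower in every treated tumor than in every control, compared with 27.5% of all other tested genes.

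For Ncr1, 6 of the 8 other members had a ratio to Ncr1 that was higher in every treated tumor, compared with 15.2% of all other tested genes. The log2 ratio of Ncr1 to Klrk1 was −3.85 ± 0.88 in controls and −6.51 ± 0.54 after PFSUV-IMQ (SD, n = 4 each). The ratios of Ncr1 to Klrd1 and to Cd244a overlapped, with log2 differences of −1.37 in both. These ratios rest on 2 to 11 counts of Ncr1 in the treated tumors. Among the pairs with neither Klrk1 nor Ncr1, the groups did not overlap in 2, Klrd1 to Klre1 and Klrd1 to Klri2, with log2 differences of −0.52 and −0.92. The share of 3.43% of all other tested genes, given above for a higher ratio to Klrd1, applies to both. Over the 36 pairs, 12 did not overlap, each at the smallest exact permutation p. The share over all pairs of tested genes was not computed, so this count has no background beside it. The smallest Benjamini-Hochberg adjusted p of the permutation tests was 0.0857, so that no pair passed 0.05 after adjustment. The exact permutation p cannot fall below 0.0286 here, so 12 pairs at that floor could not reach 0.05 over 36 pairs. The pairs also share genes and are not independent.

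**Figure D3:**
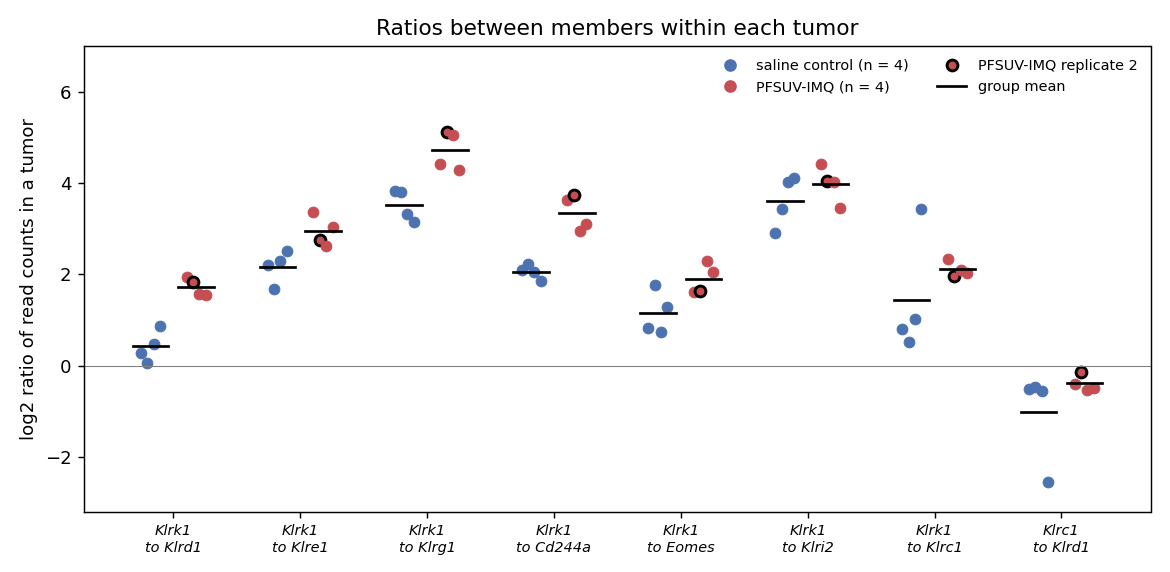
Log2 ratio of read counts of pairs of members within each tumor, for 4 saline control and 4 PFSUV-IMQ tumors, with bars at the group means and a black ring around PFSUV-IMQ replicate 2. The Klrk1 to Klrd1 ratio separates the groups with means of 0.42 and 1.72, whereas the Klrc1 to Klrd1 ratio differs mainly in 1 low control tumor.

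The ratio of Klrc1 to Klrd1, the subunits of 1 receptor, was 0.170 in control replicate 5 and at least 0.685 in each of the other 7 tumors. The 13 counts of Klrc1 in that tumor stood beside 79 counts of Klrd1.

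The genes that surround these receptors were examined as lists. Among relatives in the NK gene complex, 15 of 19 genes were matched and 8 had enough counts to be tested. None was called, 2 had a log2 fold change above 0 and 6 below 0, and the median was −0.36, or −0.48 without PFSUV-IMQ replicate 2. Klrb1b, an inhibitory receptor for Clec2d, had a log2 fold change of −0.38, and the related receptor gene Klrb1f one of −1.08, with edgeR quasi-likelihood adjusted p values of 0.639 and 0.551. Klrb1f was at −1.75 without PFSUV-IMQ replicate 2 and at −0.60 without control replicate 4. The log2 fold change of Klrc2 was −0.42, or −1.11 without PFSUV-IMQ replicate 2.

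All 12 genes for adaptors and signaling kinases were matched and 11 were tested, with a median of −0.08 and no call. With PFSUV-IMQ replicate 2 left out, 10 of the 11 were below 0 and the median was −0.50, while 44.5% of all tested genes were above 0. Hcst, the DAP10 adaptor of NKG2D, had 1.01, 2.67, 1.68 and 1.14 CPM in control replicates 1, 3, 4 and 5 and 1.43, 3.91, 1.00 and 1.27 CPM in PFSUV-IMQ replicates 1 to 4. The groups overlapped throughout. Tyrobp, which encodes DAP12 and is also expressed in myeloid cells, had a log2 fold change of −0.43, and Fcer1g of 0.31. Their adjusted p values were 0.433 and 0.681, and without PFSUV-IMQ replicate 2 the log2 fold changes were −0.58 for Tyrobp and 0.03 for Fcer1g.

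Of the ligands of the members and of the related Klrb1b, 10 of 13 genes were matched and 8 were tested. Of these, 1 was called higher, compared with 2.26% of all tested genes. The median was −0.02, or −0.17 without PFSUV-IMQ replicate 2. The called gene was Clec2d, a ligand of the inhibitory receptor Klrb1b, which is not among the members. Clec2d lies on chromosome 6 (129180615 to 129186534). It had 84.4, 114, 85.7 and 81.5 CPM in control replicates 1, 3, 4 and 5 and 148, 210, 231 and 173 CPM in PFSUV-IMQ replicates 1 to 4. All treated tumors were above all controls, and it rose by 1.06 on the log2 scale (standard error 0.19, edgeR quasi-likelihood adjusted p = 0.0206). Leaving out a tumor ended the call in 6 of 8 cases. In 5 of them the adjusted p was 0.0515 to 0.0856, and in the remaining case, without PFSUV-IMQ replicate 2, the fold change was under the limit. Over all 8 fits with a tumor left out, the log2 fold change of Clec2d was 0.95 to 1.18.

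H2-T23, which encodes the heavy chain of Qa-1, the ligand of CD94/NKG2A, was chosen after its values were seen. It had 284, 422, 315 and 302 CPM in controls and 565, 785, 500 and 426 CPM after PFSUV-IMQ. The lowest treated tumor was barely above the highest control, and the log2 fold change of 0.78 did not pass the test (standard error 0.23, edgeR quasi-likelihood adjusted p = 0.149). The tested NKG2D ligands Raet1d, Raet1e and Ulbp1 had log2 fold changes of 0.22, −0.03 and −0.08. For Cd48, the ligand of 2B4, it was −0.44. These 4 values were −0.52, 0.07, −0.18 and −0.91 without PFSUV-IMQ replicate 2.

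Among transcription factors of killer lymphocytes, 9 of 10 were tested and none was called, with a median of 0.08, or −0.11 without PFSUV-IMQ replicate 2. Nfil3, needed for NK cell development, had 25.4, 24.2, 18.9 and 29.3 CPM in control replicates 1, 3, 4 and 5 and 49.1, 67.1, 33.0 and 31.6 CPM in PFSUV-IMQ replicates 1 to 4. The groups did not overlap, and the log2 fold change of 0.89 had an adjusted p of 0.146. Tbx21, the T-box partner of Eomes, had a log2 fold change of 0.72 with an adjusted p of 0.623, and 0.24 without PFSUV-IMQ replicate 2.

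Of 14 other surface and trafficking genes that NK cells use, 13 were tested and none was called higher. Of these 13, 1 was called lower, compared with 0.2% of all tested genes. The median was −0.02, or −0.51 without PFSUV-IMQ replicate 2. The called gene was Cx3cr1, a fractalkine receptor on NK cells and on monocytes and macrophages (chromosome 9, 119901616 to 120069879). It had 61.1, 55.5, 103 and 64.1 CPM in control replicates 1, 3, 4 and 5 and 11.2, 4.89, 13.2 and 11.1 CPM in PFSUV-IMQ replicates 1 to 4. The groups were far apart. PFSUV-IMQ replicate 2, the highest treated tumor for every tested member, was the lowest for Cx3cr1. The log2 fold change was −2.81 (standard error 0.33, edgeR quasi-likelihood adjusted p = 0.00243). Of the 13 tested genes, 5 had a log2 fold change above 0 and 8 below 0. Itga2, chosen after its values were seen, had 26.7, 26.9, 17.7 and 13.1 CPM in controls and 29.9, 27.9, 32.3 and 49.0 CPM after PFSUV-IMQ. Its groups did not overlap, and its log2 fold change of 0.72 did not pass the test (edgeR quasi-likelihood adjusted p = 0.294). It was 0.79 without PFSUV-IMQ replicate 2.

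All 8 killing and cytokine genes were tested and none was called. All 8 had a log2 fold change above 0, compared with 46.0% of all tested genes, with a median of 0.48. Without PFSUV-IMQ replicate 2, Gzma, Gzmb and Ifng were above 0 and the other 5 below, with a median of −0.12. Of all tested genes, 44.5% were then above 0. Gzmb, encoding granzyme B, had 8.89, 15.4, 6.01 and 4.34 CPM in control replicates 1, 3, 4 and 5 and 22.1, 83.8, 18.1 and 27.8 CPM in PFSUV-IMQ replicates 1 to 4. All treated tumors were above all controls, and replicate 2 was far above the others. The log2 fold change was 2.12 (standard error 0.56) with an edgeR quasi-likelihood adjusted p of 0.0985, and DESeq2's Wald test gave an adjusted p of 0.00218. Without replicate 2 the log2 fold change of Gzmb was 1.36. Gzma, encoding granzyme A, had a log2 fold change of 1.21 with an adjusted p of 0.347, and 0.56 without replicate 2. Prf1, encoding perforin, had 0.33, or −0.10 without that tumor, and Ifng, encoding interferon gamma, had 0.62, or 0.28 without it.

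T cells can carry NKG2D, Klrg1, 2B4 and Eomes as well, so their markers were placed beside the members. Of 12 T cell marker genes, 11 were tested and none was called, with 3 above 0, 8 below 0 and a median of −0.19. Without PFSUV-IMQ replicate 2, all 11 were below 0 with a median of −0.55, and none was called. Of all tested genes, 44.5% were then above 0. This tally leaves out only the tumor with the highest summed level, and none was made without a control tumor. The summed level of the 11 genes was 146 to 231 CPM in controls and 128 to 245 CPM after PFSUV-IMQ, and none of them was at 0 in any tumor. The highest sum was in PFSUV-IMQ replicate 2, the tumor that was also the highest of its group for the members. Cd8a, a coreceptor of cytotoxic T cells, had a log2 fold change of 0.48, Trac, the T cell receptor alpha constant gene, −0.45, and Cd5, an inhibitory surface protein of T cells, −1.17 with an adjusted p of 0.160. Without replicate 2 the values were −0.03 for Cd8a, −0.65 for Trac and −1.47 for Cd5. The part of T cells in the values of Klrk1 and Eomes was not tested.

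**Figure D4:**
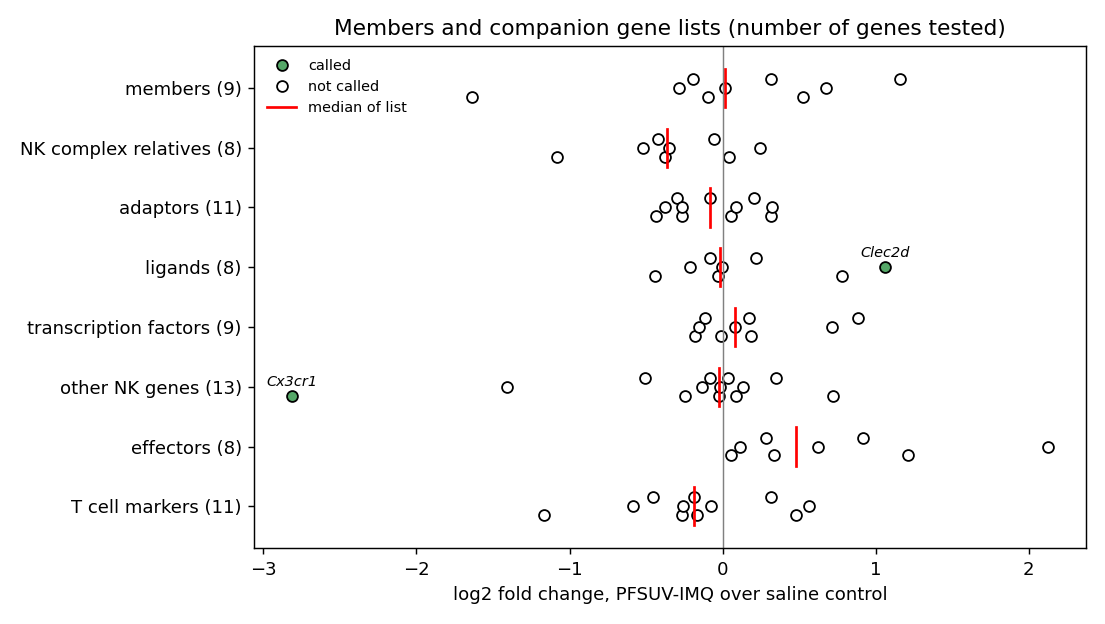
Log2 fold change (PFSUV-IMQ over saline control) of each tested gene by list, with red lines at the list medians and filled points for genes called by edgeR's quasi-likelihood test. Clec2d at 1.06 and Cx3cr1 at −2.81 are the called genes. The tested members have a median of 0.02, or −0.39 without PFSUV-IMQ replicate 2, their highest treated tumor.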

How the data were processed

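RNA from 8 HCA-1 tumors was sequenced after poly(A) selection. The authors deposited whole-number read counts per gene for 55536 genes, and all tests started from these counts. The other deposited table gives signal values, for which the authors divided the counts of each tumor by 1 DESeq2 size factor (largest relative departure 5.4e-10), and it was used here for gene names and for this check. The paper's methods name TopHat and HTSeq, whereas the submitters' processing notes name Trimmomatic 0.38, HISAT2 2.1.0 and featureCounts 2.0.0, so the aligner and counter are uncertain. The genome build they used is not given in the sources used here. All counted identifiers were looked up in GENCODE M21 (GRCm38).

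The groups were compared in R 4.3.3 with edgeR 4.0.16 (TMM normalization, default low-count filter, quasi-likelihood test, Benjamini-Hochberg adjustment over 15998 genes), and a gene was called where the adjusted p was below 0.05 and the log2 fold change over 1 or under −1. Adjusted p values come from this test unless another is named. Correlations used log2 CPM with a prior count of 2. Ratios within a tumor were compared by exact two-sided permutation tests in Python 3.11.15 with scipy 1.17.1. Alternatives were DESeq2 1.42.0 and its size factors, upper-quartile normalization, other low-count filters, edgeR's exact test, a term for the replicate number and each tumor left out in turn. The alternatives for the ratio of Klrk1 to Klrd1, and the tallies of lists without PFSUV-IMQ replicate 2, were added after the values were seen. The scripts were tested on simulated data.

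Tumors of the same group correlated at 0.912 to 0.984 (Pearson, across genes, which are not independent replicates). The chi-square of their counts was 26.0 to 258 per degree of freedom, so each differed from the others beyond sampling noise. No batch or date is given. The members and gene lists were chosen with earlier results of these data known. The genes named are all 10 members and, of each list, the called genes or else those with the smallest p. Other genes named are those that background on the members' ligands, adaptors and cells called for. These were chosen after their values were seen. The genes Klra4, Klra6, Klra8, Klra10, Raet1a, Raet1b and Raet1c were not matched by symbol and were not analysed here.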

Additional observations from a re-analysis of the deposited data

Results flagged for a closer look

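Values were compared within each group of 4 tumors for 48 groups, and 7 had a tumor that stood apart from the rest. The gap required is one that chance gives in about 1 in 20 groups of independent, normally distributed values. Many of these genes vary together over the tumors, so the flags are not independent. Of the 7 flags, 5 concerned PFSUV-IMQ replicate 2. Klrk1 reached 57.2 CPM there, with 21.9 CPM in the next treated tumor. Klrc1 reached 14.6 CPM against 5.35 CPM, and Eomes 18.4 CPM against 6.35 CPM. Gzmb reached 83.8 CPM against 27.8 CPM, and Gzma 2.03 CPM against 0.725 CPM. The remaining 2 were in controls. Clec2d was 114 CPM in control replicate 3 and at most 85.7 CPM in the other controls. The ratio of Klrc1 to Klrd1 was 0.170 in control replicate 5, with 0.685 in the nearest control.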

How the results depend on the processing

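No member was called in either direction under any of the 16 alternatives, with adjusted p values of 0.0937 (Klrk1, DESeq2's Wald test) or more. Klrk1 kept an adjusted p of 0.0937 to 0.467, and Ncr1 of 0.0953 to 0.645. Of 133 fits of single members, 18 reversed the direction of an uncalled fold change, and the cause was not tested. Klrc1 was −0.062 with upper-quartile normalization and −0.0043 with no low-count filter. Leaving out 1 tumor at a time gave log2 fold changes of −0.76 to 0.16 for Klrd1, −0.63 to 0.60 for Klrc1, −0.36 to 0.86 for Klre1, −0.39 to 0.12 for Klrg1, −0.20 to 0.77 for Eomes and −0.51 to 0.0038 for Cd244a. The filter of at least 10 counts in every tumor removed Ncr1 and Klri2, so it gave no value for them.

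The groups share the replicate numbers 1, 3 and 4, but same-numbered tumors are of different animals. Their deviations from the group means correlated at 0.29, −0.27 and −0.32, with no common sign. Whether same-numbered tumors shared a batch or a handling step is not given, and these correlations cannot settle it. With the replicate number as a block, Klrc1 was −0.90, Klre1 −0.50, Klri2 −0.056, Eomes −0.40, Klrd1 −0.94, Cd244a −0.63, Klrg1 −0.47, Klrk1 0.47 and Ncr1 −2.37, and no member was called. Number 2 occurs only in the PFSUV-IMQ group and number 5 only in the controls. These tumors therefore add nothing to the group difference in the block fit, which rests on replicates 1, 3 and 4 of each group.

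Of the companion genes, 1 was called higher and 1 lower. The number called higher was 0 with upper-quartile normalization and with the replicate block, 2 with no low-count filter, DESeq2's Wald test and edgeR's exact test, where Gzmb joined Clec2d, and 0 to 1 with each tumor left out. The number called lower was 2 with DESeq2's Wald test, where Cd5 joined Cx3cr1, and 2 with the block. Over all tested genes, 362 were called higher and 32 lower, against 572 and 114 with DESeq2's Wald test, 541 and 92 with edgeR's exact test, 491 and 63 with no low-count filter, 416 and 267 with the block, and 197 to 375 and 8 to 38 with each tumor left out. For Ncr1, Klrb1c, Klrg1 and Klri2, depth limits what could be detected.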
